A study of Homo sapiens with 24 samples.

Results

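The 9 genes described here are NFE2L2, which encodes the transcription factor NRF2, and genes that NRF2 is known to activate, namely NQO1, HMOX1, GCLC, GCLM, TXNRD1, SRXN1, PGD, and ME1. They were taken by gene symbol from a read-count table of 14493 genes, and all 9 passed the filter on low counts in every comparison below. RNA-seq was performed on SKBR3 cells (SKBr3 in the labels), an established HER2-positive human breast cancer cell line, in 24 libraries that form 8 groups of 3 replicates. Of the 6 drug-treated groups, collected on day 7 after a refeed on day 3 and termed therapy-induced senescence (TIS) cells, 2 received an inhibitor of fatty acid synthesis, either the acetyl-CoA carboxylase inhibitor ND-646 at 250 nmol/L or the fatty acid synthase inhibitor TVB-3166 at 250 nmol/L. The other 4 received an established senescence inducer, namely the DNA-breaking agent bleomycin at 10 µmol/L, the Aurora A kinase inhibitor alisertib at 500 nmol/L, the anthracycline doxorubicin at 10 nmol/L, or the CDK4/6 inhibitor palbociclib (Palboclib in the labels) at 1 µmol/L. The controls were untreated proliferative cells at day 0 and untreated cells at day 7. The labels give no refeed for the day-7 controls, so in comparisons with them the drug and the refeed cannot be told apart, and no group carries an introduced genetic change according to the labels. All groups come from a single cell line, and nothing in the labels says that replicates were separate cultures, so the p-values measure only the spread between these libraries.

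NRF2 is held by KEAP1 and degraded in unstressed cells, and it accumulates when oxidants or electrophiles modify KEAP1. It then pairs with a small MAF protein on antioxidant response elements in the DNA, so its activity is set mostly by protein stability rather than by the level of its own mRNA. Its targets detoxify quinones and heme, make glutathione, reduce thioredoxin, and replenish cytosolic NADPH, the reducing power that glutathione, thioredoxin, and fatty acid synthesis all draw on.

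Total counts per library ranged from 29405121 to 44316330. The markers of this cell line were high in all 24 libraries, with ERBB2 at 5121 to 8827 CPM and KRT8 at 1815 to 5867 CPM, where CPM scales the counts to the library size after TMM normalization. Among markers of other cell types, COL1A1 (fibroblast) was at 6.43 to 15.3 CPM and VWF (endothelial) at 0.0715 to 1.47 CPM. A pair of libraries stood apart. ND-646 replicate 1 had a TMM factor of 0.791 against 0.895 to 1.08 in the other 23 libraries, and day-0 replicate 1, at 0.895, had the highest HMOX1 level of the control libraries. Results that move without these libraries are given with and without them. Each library pools many cells, so more cells expressing a gene and more RNA per cell cannot be told apart.

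Antioxidant response elements are the DNA sequences through which NRF2 acts, so the 1000 bases upstream of each gene's canonical transcript start on GRCh37 were searched on both strands for the core TGACNNNGC and for the stricter TGACTCAGC, which is a special case of the core and whose opening letters TGACTCA also form the AP-1 motif. The core was found in 33.8% of 12091 protein-coding genes of the table and in 6 of the 9 genes, and the stricter form in 1.27% of them and in 2 of the 9, NQO1 and ME1. The windows of NFE2L2, HMOX1, and SRXN1 held no match, which says only that these letters are not in these windows. The matches that lie outside the annotated gene are shown with their surroundings, 5′ to 3′ on the strand of the gene and with the match in capitals, because they belong to the genes with the stricter form and to the most abundant of the 9 mRNAs.
NQO1: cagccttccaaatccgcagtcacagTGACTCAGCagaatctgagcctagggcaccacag
ME1: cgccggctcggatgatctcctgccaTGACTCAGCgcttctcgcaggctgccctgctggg
TXNRD1: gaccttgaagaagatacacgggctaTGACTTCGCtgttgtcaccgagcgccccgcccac
These stretches are at chr16:69760885-69760943 (minus strand), chr6:84140874-84140932 (minus strand), and chr12:104609433-104609491 (plus strand), and their matches end 447, 129, and 91 bases before the transcript start of NQO1, ME1, and TXNRD1. On the opposite strand, the core read TGACTAAGC at 26 bases before the start of GCLM, TGACATTGC at 193 bases before the start of PGD, and TGACAGAGC at 862 bases before the start of GCLC. A match is a description of the sequence and not a site of NRF2 binding, which was not measured in these libraries.

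The mRNAs of these enzymes differed widely in level. Per kilobase of canonical transcript, the median over the 8 groups was highest for TXNRD1 (443.5 CPM per kb) and NQO1 (290.7), followed by PGD (129.5), ME1 (84.6), SRXN1 (59.8), HMOX1 (54.2), and NFE2L2 (34.8). The glutamate-cysteine ligase subunits were lowest, with GCLM at 26.5 and GCLC at 23.4 CPM per kb.

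**Figure D1:**
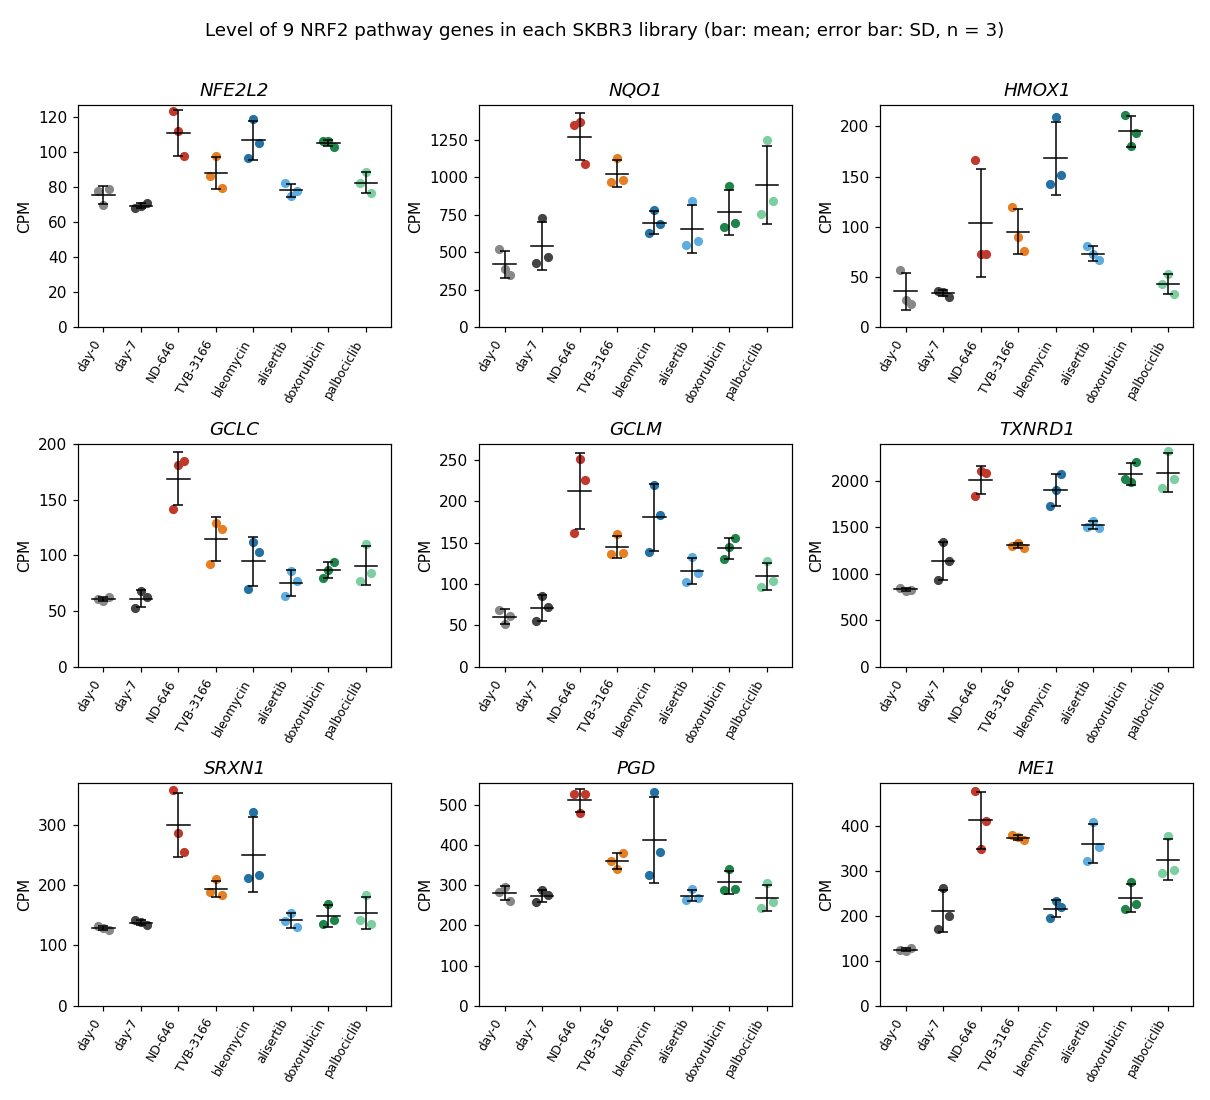
Level of each gene in CPM (vertical axis, linear from 0) in the 3 libraries (points) of each group (horizontal axis), with the mean (bar) and SD (error bar). All ND-646 libraries lie above all day-0 and day-7 libraries for all 9 genes, and the mean of HMOX1 is highest in doxorubicin and bleomycin TIS cells.

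In TIS cells the 9 genes were either upregulated or did not pass the test, and none of them fell. A gene was called when the edgeR test (quasi-likelihood, all genes) gave a Benjamini-Hochberg adjusted p-value under 0.05. By this measure 9 of 9 were upregulated against day-0 cells in ND-646 TIS cells, where 19.1% of all genes tested were called higher. The count was 8 in TVB-3166 TIS cells (27.4% of all genes), 9 in bleomycin (24.1%), 5 in alisertib (17.7%), 7 in doxorubicin (23.7%), and 5 in palbociclib TIS cells (26%). The median log2 fold-change of the 9 genes was 1.48 in ND-646, 0.93 in TVB-3166, 0.80 in bleomycin, 0.64 in alisertib, 0.88 in doxorubicin, and 0.58 in palbociclib TIS cells, while the median over all genes was between -0.01 and 0.02. Under a fold-change of at least 2 with a raw p-value under 0.05, the rule used in the study, the counts were 7 (11.4% of all genes), 4 (10.9%), 3 (11.5%), 2 (6.47%), 3 (10%), and 3 (10.5%) in the same order. TIS and day-0 libraries did not overlap for 9, 9, 9, 6, 8, and 6 of the 9 genes, and for 51.7%, 62.6%, 59.5%, 50.6%, 58.5%, and 62.3% of all genes, in which both directions are counted. These 6 comparisons share the 3 day-0 libraries, as the next 6 share the day-7 libraries, and are not independent of each other.

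Against untreated cells of the same day, 9 genes were upregulated in ND-646 TIS cells (17.2% of all genes called higher), 8 in TVB-3166 (25.4%), 7 in bleomycin (22.4%), 4 in alisertib (9.55%), 6 in doxorubicin (21.9%), and 6 in palbociclib TIS cells (22%). The median log2 fold-changes were 1.12, 0.83, 0.65, 0.32, 0.53, and 0.58, and under the fold-change rule 5 (8.74%), 2 (7.24%), 2 (8.49%), 1 (2.54%), 2 (7%), and 0 (6.51%) genes were called higher. Libraries did not overlap for 9 (50.8% of all genes), 8 (59.4%), 7 (57%), 5 (37.7%), 6 (54.1%), and 6 (54.6%) of the 9. The log2 fold-change was negative in 3 of these comparisons with either control, all of them of PGD and with an edgeR adjusted p of at least 0.631. NQO1, GCLM, TXNRD1, and ME1 were upregulated in all 6 TIS groups against day-0 cells, whereas GCLM was the 1 gene upregulated in all 6 against day-7 cells.

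**Figure D2:**
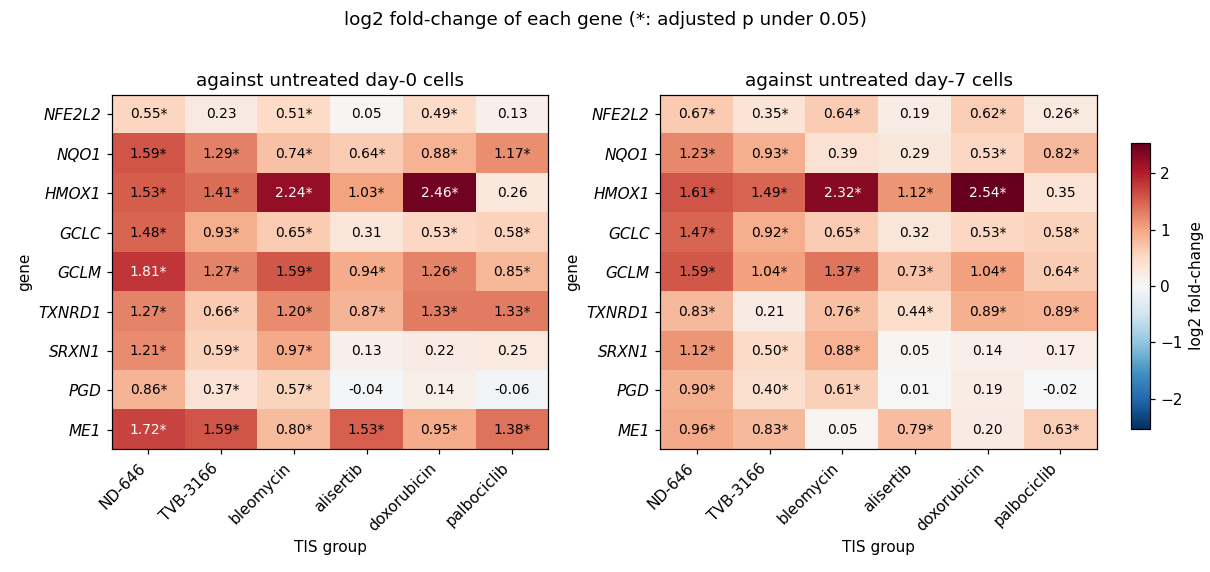
log2 fold-change of each gene (rows) in each TIS group (columns) against untreated day-0 cells (left) and untreated day-7 cells (right), with an asterisk at an adjusted p-value under 0.05. The values run from -0.06 to 2.54, and no gene has an asterisk with a negative value.

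NFE2L2, the gene for NRF2 itself (gene 4780, chr2:178083395-178257484 on GRCh37, minus strand), had the smallest range of the 9, with a highest group mean only 1.60 times the lowest. It was at 77.6, 69.6, and 79.1 CPM in the day-0 libraries and at 67.9, 69.4, and 71.2 CPM in the day-7 libraries. In ND-646 TIS cells it was at 124, 112, and 97.4 CPM, in bleomycin at 96.3, 119, and 105 CPM, and in doxorubicin at 106, 106, and 103 CPM, and all of these libraries lay above all control libraries. Against day-0 cells the log2 fold-change was 0.55 ± 0.14 (SE; edgeR adjusted p = 0.0164) for ND-646, 0.51 ± 0.11 (0.00451) for bleomycin, and 0.49 ± 0.08 (0.00116) for doxorubicin. The ND-646 call was lost without ND-646 replicate 2 or without day-0 replicate 2 or 3, with an adjusted p of at most 0.0885. NFE2L2 was at 86.5, 97.9, and 79.5 CPM in TVB-3166, at 82.3, 74.9, and 77.7 CPM in alisertib, and at 82.3, 88.4, and 76.5 CPM in palbociclib TIS cells. These 3 groups did not pass the test against day-0 cells, whereas TVB-3166 (0.35, edgeR adjusted p = 0.0063) and palbociclib (0.26, edgeR adjusted p = 0.0175) passed against day-7 cells. The palbociclib call was lost with all 24 libraries in a single fit (adjusted p = 0.0542) and without palbociclib replicate 2 (0.0682). In order of level, ND-646, bleomycin, and doxorubicin came first, and the gap from doxorubicin to TVB-3166 was the only one between neighbouring groups whose libraries did not overlap. The annotated span of NFE2L2 overlaps AGPS and HNRNPA3 on the other strand, and whether the counting used strand is not given in the sources used here.

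NQO1 encodes a quinone reductase and is the textbook NRF2 target (gene 1728, chr16:69740899-69760571, minus strand). Its level was 523, 390.1, and 349 CPM in the day-0 libraries and 426, 726, and 472 CPM in the day-7 libraries. It reached 1352, 1371, and 1089 CPM in ND-646 and 967, 1128, and 979.9 CPM in TVB-3166 TIS cells, above every control library. Palbociclib TIS cells followed at 756, 1248, and 845 CPM, doxorubicin at 667, 941, and 694 CPM, bleomycin at 627, 779.7, and 689.7 CPM, and alisertib at 547, 841, and 577 CPM. Each of these groups lay above the day-0 libraries, and all but palbociclib overlapped the day-7 libraries, of which replicate 2 was the highest. NQO1 rose 3.01-fold against day-0 cells in ND-646 (log2 fold-change 1.59 ± 0.21, edgeR adjusted p = 0.000582) and 2.45-fold in TVB-3166 TIS cells (1.29 ± 0.15, 3.9e-05). In the other 4 groups it rose 1.55- to 2.25-fold against day-0 cells, and the smallest of these changes, in alisertib (0.64 ± 0.19, edgeR adjusted p = 0.022), was lost without alisertib replicate 2 or without day-0 replicate 2 or 3. Against day-7 cells the alisertib and bleomycin differences did not pass (0.29 and 0.39, edgeR adjusted p = 0.331 and 0.121). With the replicate number as a block both did (0.30 and 0.42, edgeR adjusted p = 0.00329 and 0.0141). The labels give these numbers no meaning. Same-numbered libraries of these groups deviated together only just beyond the chosen correlation cut of 0.1, with lowest values of 0.101 for alisertib and 0.104 for bleomycin. The doxorubicin call against day-7 cells (0.53, edgeR adjusted p = 0.0349) was lost with DESeq2 (adjusted p = 0.143), with all 24 libraries in a single fit (0.0778), and in 3 of 6 fits that left out a library. Every pair of neighbouring groups in the order of NQO1 levels overlapped.

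HMOX1 encodes heme oxygenase 1, which opens the heme ring and releases iron (gene 3162, chr22:35776354-35790207, plus strand). It showed the widest range of the 9 genes and a different order of groups. The day-0 libraries were at 56.9, 26.8, and 23.6 CPM and the day-7 libraries at 36.4, 35.2, and 30.7 CPM. HMOX1 was highest in doxorubicin TIS cells at 212, 181, and 193 CPM and in bleomycin TIS cells at 143, 209, and 152 CPM. ND-646 replicate 1 reached 166 CPM while the other ND-646 libraries were at 73.1 and 72.9 CPM. TVB-3166 TIS cells were at 119.5, 89.8, and 76.0 CPM and alisertib TIS cells at 80.9, 72.6, and 66.9 CPM, and all libraries of these 3 groups lay above the control libraries. Palbociclib TIS cells were at 43.1, 53.1, and 32.9 CPM and overlapped both control groups. Against day-7 cells HMOX1 rose 5.82-fold in doxorubicin (log2 fold-change 2.54 ± 0.10, edgeR adjusted p = 3.4e-08), 4.99-fold in bleomycin (2.32 ± 0.16, 2.17e-05), 3.04-fold in ND-646 (1.61 ± 0.31, 0.00557), 2.80-fold in TVB-3166 (1.49 ± 0.15, 1.22e-05), and 2.17-fold in alisertib TIS cells (1.12 ± 0.10, 0.000151). The same 5 groups were called against day-0 cells, at log2 fold-changes from 1.03 to 2.46, and in palbociclib TIS cells the difference did not pass (0.26, edgeR adjusted p = 0.466). These values depend on day-0 replicate 1: without it, the log2 fold-change was 2.96 in doxorubicin and 2.74 in bleomycin, and palbociclib was called (0.78, edgeR adjusted p = 0.00195). The ND-646 call against day-0 cells (1.53 ± 0.41, edgeR adjusted p = 0.0183) was lost without day-0 replicate 2 or 3 (1.35 and 1.30) and kept at 1.03 without ND-646 replicate 1 (edgeR adjusted p = 0.0173), and the alisertib call was lost without day-0 replicate 2.

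GCLC and GCLM encode the catalytic and the modifier subunit of glutamate-cysteine ligase, the rate-limiting enzyme of glutathione synthesis. GCLM (gene 2730, chr1:94350755-94375012, minus strand) was upregulated in every TIS group against both controls. It was at 68.9, 51.6, and 60.9 CPM in the day-0 libraries and at 54.7, 85.8, and 72.0 CPM in the day-7 libraries. GCLM was highest in ND-646 at 161, 251, and 226 CPM and in bleomycin at 139, 220.0, and 183 CPM. The remaining libraries were at 136, 160.5, and 138 CPM in TVB-3166, at 130.1, 144, and 155 CPM in doxorubicin, at 102, 133, and 113 CPM in alisertib, and at 96.5, 128, and 104 CPM in palbociclib TIS cells. No TIS library overlapped a control library. Against day-0 cells the change ran from 3.51-fold in ND-646 (log2 fold-change 1.81 ± 0.20, edgeR adjusted p = 0.000258) and 3.00-fold in bleomycin (1.59 ± 0.18, 0.000133) to 1.81-fold in palbociclib TIS cells (0.85 ± 0.13, 0.000322). Against day-7 cells it ran from 3.00-fold in ND-646 (1.59 ± 0.22, edgeR adjusted p = 0.00118) to 1.56-fold in palbociclib TIS cells (0.64 ± 0.15, 0.00495).

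GCLC (gene 2729, chr6:53362139-53481768, minus strand) was steady in the controls, with all 6 libraries between 52.7 and 67.6 CPM. ND-646 TIS cells stood clear of every other group at 141, 181, and 184 CPM. TVB-3166 TIS cells were next at 92.3, 129, and 123 CPM. Bleomycin at 69.8, 112, and 103 CPM, palbociclib at 77.2, 110.4, and 84.4 CPM, doxorubicin at 79.5, 86.5, and 93.6 CPM, and alisertib at 63.1, 85.8, and 76.5 CPM overlapped their neighbours in this order. GCLC rose 2.78-fold in ND-646 (log2 fold-change 1.48 ± 0.15, edgeR adjusted p = 0.000175), 1.91-fold in TVB-3166 (0.93 ± 0.12, 9.6e-05), and 1.44- to 1.57-fold in bleomycin, doxorubicin, and palbociclib TIS cells against day-0 cells. The alisertib difference of 0.31 did not pass against day-0 cells (edgeR adjusted p = 0.0552) but did with RLE size factors (0.0481), DESeq2 (0.031), the replicate block (0.0316), and without alisertib replicate 1 (0.0147) or day-0 replicate 1 (0.0445). That of 0.32 against day-7 cells did not pass either (0.0881) except without alisertib replicate 1 and with the replicate number as a block (0.31, edgeR adjusted p = 0.00429). The bleomycin call against day-7 cells, for GCLC as for PGD, was lost without day-7 replicate 1.

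TXNRD1 encodes cytosolic thioredoxin reductase, and SRXN1 encodes sulfiredoxin, which repairs over-oxidized peroxiredoxins. TXNRD1 (gene 7296, chr12:104609557-104744085, plus strand) was at 847, 818, and 825 CPM in day-0 cells and at 929, 1336, and 1133 CPM in day-7 cells. It was highest in 4 TIS groups that overlapped each other, with 1925, 2318, and 2016 CPM in palbociclib, 2015, 1988, and 2202 CPM in doxorubicin, 1835, 2105, and 2086 CPM in ND-646, and 1730.0, 1901, and 2076 CPM in bleomycin TIS cells. Alisertib TIS cells were lower at 1505, 1571, and 1489 CPM, and TVB-3166 TIS cells lowest of the treated groups at 1300.0, 1328, and 1280.1 CPM. The libraries of bleomycin, alisertib, and TVB-3166 TIS cells did not overlap each other, and those of TVB-3166 overlapped the day-7 libraries. Palbociclib TIS cells, which had the lowest mean of the treated groups for HMOX1, GCLM, and PGD, had the highest for TXNRD1. It rose 2.51-fold in both doxorubicin and palbociclib TIS cells against day-0 cells (log2 fold-change 1.33 ± 0.11 in each, edgeR adjusted p = 2.61e-05 and 9.16e-06), 2.41-fold in ND-646 (1.27 ± 0.17, 0.00067), 2.30-fold in bleomycin (1.20 ± 0.13, 0.0001), 1.83-fold in alisertib (0.87 ± 0.09, 0.000195), and 1.58-fold in TVB-3166 TIS cells (0.66 ± 0.10, 0.000266). Against day-7 cells TVB-3166 did not pass (0.21, 95% interval -0.05 to 0.47, edgeR adjusted p = 0.168), and alisertib passed (0.44, edgeR adjusted p = 0.0241) but was lost in 3 of 6 fits that left out a library. The ND-646 call against day-7 cells (0.83, edgeR adjusted p = 0.00889) was lost without day-7 replicate 3. EID3 and RPL18AP3 overlap the annotated span of TXNRD1 on the same strand, so reads in the shared bases could have been assigned to either gene.

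SRXN1 (gene 140809, chr20:627259-633844, minus strand) was called higher in 3 of the 6 TIS groups against either control. It was between 125 and 142 CPM in all 6 control libraries. ND-646 TIS cells were at 357, 287, and 255 CPM, bleomycin at 212, 321, and 217 CPM, and TVB-3166 at 188, 209, and 183 CPM, all above the control libraries. Palbociclib TIS cells at 141, 184, and 136 CPM, doxorubicin at 136, 168, and 141 CPM, and alisertib at 139.8, 154, and 130.3 CPM overlapped the day-7 libraries. SRXN1 rose 2.31-fold in ND-646 (log2 fold-change 1.21 ± 0.16, edgeR adjusted p = 0.000587), 1.95-fold in bleomycin (0.97 ± 0.16, 0.00105), and 1.51-fold in TVB-3166 TIS cells (0.59 ± 0.09, 0.000259) against day-0 cells. The differences in palbociclib, doxorubicin, and alisertib TIS cells were 0.25, 0.22, and 0.13, with edgeR adjusted p = 0.08, 0.0942, and 0.269, and against day-7 cells they were 0.17, 0.14, and 0.05 and did not pass either. The palbociclib and doxorubicin libraries nevertheless lay above all day-0 libraries. Without palbociclib replicate 3, palbociclib was called against day-0 cells (0.33, edgeR adjusted p = 0.048).

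PGD and ME1 both make cytosolic NADPH, PGD (6-phosphogluconate dehydrogenase) in the oxidative pentose phosphate pathway and ME1 (malic enzyme 1) from malate, and their patterns across the groups differed. PGD (gene 5226, chr1:10458649-10480568, plus strand) was at 283, 296, and 262 CPM in day-0 cells and at 258, 288, and 276 CPM in day-7 cells. It stood at 528, 479, and 527 CPM in ND-646 and at 359.7, 341, and 381 CPM in TVB-3166 TIS cells, with no overlap with a control library. Bleomycin TIS cells were above the controls but scattered, at 325, 533, and 383 CPM. Alisertib at 264, 289.6, and 268 CPM, doxorubicin at 289, 341, and 291 CPM, and palbociclib at 243, 305, and 258 CPM lay at or near the control levels. PGD rose 1.82-fold in ND-646 (log2 fold-change 0.86 ± 0.14, edgeR adjusted p = 0.00192), 1.48-fold in bleomycin (0.57 ± 0.17, 0.0211), and 1.29-fold in TVB-3166 TIS cells (0.37 ± 0.10, 0.00706) against day-0 cells. The bleomycin call was lost without bleomycin replicate 2 (0.34, edgeR adjusted p = 0.0545) or without day-0 replicate 3. In alisertib, doxorubicin, and palbociclib TIS cells the log2 differences were -0.04, 0.14, and -0.06 against day-0 cells, with 95% intervals from -0.29 to 0.37.

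ME1 (gene 4199, chr6:83920121-84140770, minus strand), by contrast, was upregulated in all 6 TIS groups against day-0 cells. It was at 125, 122, and 129 CPM in day-0 cells and at 172, 263, and 199.8 CPM in day-7 cells. ND-646 TIS cells reached 478, 349.8, and 411 CPM, TVB-3166 was tightly grouped at 379.6, 375, and 369.8 CPM, alisertib was at 322, 409, and 353 CPM, and palbociclib at 297, 378, and 302 CPM. Doxorubicin at 217, 275, and 226 CPM and bleomycin at 197, 233, and 220.2 CPM were lower and overlapped the day-7 libraries, while none of the palbociclib libraries overlapped those of doxorubicin. Against day-0 cells ME1 rose 3.29-fold in ND-646 (log2 fold-change 1.72 ± 0.16, edgeR adjusted p = 8.66e-05), 3.01-fold in TVB-3166 (1.59 ± 0.09, 3.65e-07), 2.88-fold in alisertib (1.53 ± 0.10, 2.84e-05), and 2.60-fold in palbociclib TIS cells (1.38 ± 0.11, 4.95e-06). In doxorubicin and bleomycin TIS cells it rose 1.93- and 1.74-fold against day-0 cells, but the differences from day-7 cells were 0.20 and 0.05, with 95% intervals of -0.10 to 0.51 and -0.28 to 0.38, and did not pass.

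ME1 was also the 1 gene of the 9 that the main edgeR test called higher in untreated day-7 than in day-0 cells. Between untreated day-7 and day-0 cells, 0.587% of all genes were called, 0.389% of all genes being called higher, and ME1 rose 1.70-fold (log2 fold-change 0.77 ± 0.14, edgeR adjusted p = 0.0474). This call lay at the threshold and was lost without the filter on low counts (edgeR adjusted p = 0.0588) and in 5 of 6 fits that left out a library. TXNRD1 was higher in all 3 day-7 libraries (0.46 ± 0.13) but missed the threshold (edgeR adjusted p = 0.0957), although it passed with DESeq2 (adjusted p = 0.0147), with all 24 libraries in a single fit (0.0389), and with the replicate number as a block (0.0327). The other 7 genes differed by -0.11 to 0.37 on the log2 scale, and none of them passed. None of the 9 passed the fold-change rule (1.99% of all genes did), and day-7 and day-0 libraries did not overlap for 3 of them, TXNRD1, SRXN1, and ME1 (29.6% of all genes).

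The 2 inhibitors of fatty acid synthesis were compared directly, at the same dose and time. Each of the 9 genes had a lower mean in TVB-3166 than in ND-646 TIS cells, where 51.3% of all genes did, and 5 of the 9 (TXNRD1, SRXN1, PGD, GCLC, and GCLM) had no overlap between libraries, against 24.2% of all genes. By edgeR 0 of the 9 genes passed the adjusted threshold and 0.717% of all genes did, and 0 passed the fold-change rule (3.14% of all genes). The log2 differences of TVB-3166 from ND-646 were -0.63 ± 0.15 for SRXN1 (edgeR adjusted p = 0.104), -0.62 ± 0.13 for TXNRD1 (0.086), -0.55 ± 0.17 for GCLC (0.201), -0.55 ± 0.18 for GCLM (0.218), and -0.50 ± 0.12 for PGD (0.102). For NFE2L2, NQO1, ME1, and HMOX1 they were -0.33, -0.31, -0.14, and -0.12. This comparison turned on the library that stood apart: without ND-646 replicate 1, edgeR called 5 of the 9 genes lower in TVB-3166 TIS cells, namely GCLC (-0.66, adjusted p = 0.0105), GCLM (-0.71, 0.00227), TXNRD1 (-0.68, 0.0015), SRXN1 (-0.48, 0.00991), and PGD (-0.48, 0.00763), while HMOX1 turned to 0.39 (0.137). DESeq2 called 3 of the 9 (TXNRD1, SRXN1, and PGD), and the fit of all 24 libraries called 5 (these 3 with GCLC and NFE2L2). The replicate block called TXNRD1 alone (-0.62, edgeR adjusted p = 0.0498), and same-numbered libraries of these groups deviated together with correlations of 0.211 to 0.379. The calls for ND-646 against both controls were 9 of 9 with and without replicate 1.

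**Figure D3:**
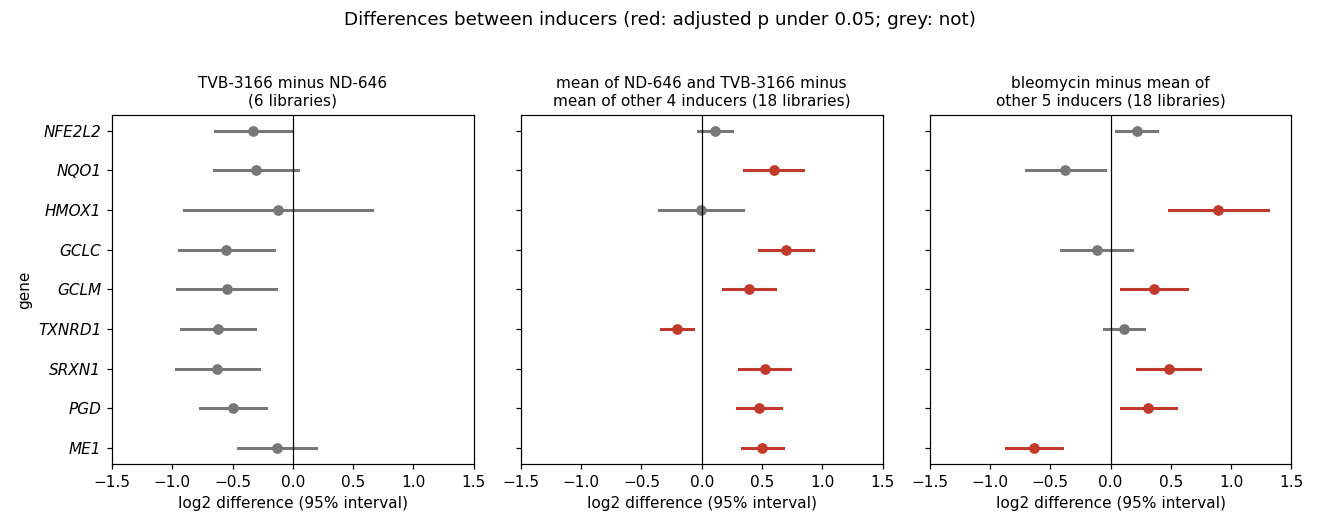
log2 difference (horizontal axis) with its 95% interval for each gene (rows), for TVB-3166 against ND-646 (left), the mean of both fatty acid synthesis inhibitors against the mean of the other 4 inducers (middle), and bleomycin against the mean of the other 5 inducers (right), with red marking an adjusted p-value under 0.05. In the middle panel 6 genes lie to the right of 0 and TXNRD1 to the left, whereas no gene is red in the left panel.

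The 2 inhibitors of fatty acid synthesis, taken as a mean, were then tested against the mean of the other 4 TIS groups in a single fit of 18 libraries. In it, 6 of the 9 genes were higher with inhibition of fatty acid synthesis, where 26.1% of all genes were called higher, and 1 was lower, where 24% were. GCLC differed most (log2 difference 0.70 ± 0.11, edgeR adjusted p = 4.19e-05), followed by NQO1 (0.60 ± 0.12, 0.000438), SRXN1 (0.52 ± 0.10, 0.000358), ME1 (0.50 ± 0.08, 6.68e-05), PGD (0.47 ± 0.09, 0.000223), and GCLM (0.39 ± 0.10, 0.00453). TXNRD1 was lower (-0.21 ± 0.06, edgeR adjusted p = 0.0111), with a mean of 2009 CPM for ND-646 and of 1303 CPM for TVB-3166 against 1521 to 2087 CPM in the other 4 groups. This contrast averages ND-646 and TVB-3166. The mean of TVB-3166 alone was below that of bleomycin for SRXN1 (193 against 250 CPM), PGD (361 against 414 CPM), and GCLM (145 against 181 CPM). It was above the means of the other 4 groups for GCLC, NQO1, and ME1, although its ME1 mean was near that of alisertib (375 against 361 CPM). NFE2L2 (0.11, 95% interval -0.03 to 0.25) and HMOX1 (-0.01, 95% interval -0.35 to 0.34) did not pass. Both sets of libraries overlapped for all 9 genes, whereas 7.06% of all genes did not overlap, and none of the 9 passed the fold-change rule (7.14% of all genes). In all, 7 of the 9 were called in each of the 18 fits that left out a library.

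Bleomycin, which is known to generate reactive oxygen species through its iron complex, was tested against the mean of the other 5 inducers in the same libraries. HMOX1 was higher in bleomycin TIS cells (log2 difference 0.89 ± 0.19, edgeR adjusted p = 0.0025), as were SRXN1 (0.48 ± 0.12, 0.00826), PGD (0.31 ± 0.11, 0.0414), and GCLM (0.36 ± 0.13, 0.0449), where 14.5% of all genes were called higher. For each of these genes another group had a higher mean than bleomycin. It was doxorubicin for HMOX1 (195 against 168 CPM). It was ND-646 for SRXN1 (299 against 250 CPM), PGD (511 against 414 CPM), and GCLM (213 against 181 CPM). ME1 was lower (-0.64 ± 0.11, edgeR adjusted p = 0.000399), where 12.7% of all genes were. Bleomycin replicate 2 had the highest level of that group for 8 of the 9 genes, and without it only HMOX1 (0.70, edgeR adjusted p = 0.0485) and ME1 (-0.70, 0.00197) were called. The GCLM call was lost in 10 of 18 fits that left out a library and with all 24 libraries in a single fit (adjusted p = 0.0536), and the PGD call in 11 of 18. NFE2L2, NQO1, GCLC, and TXNRD1 did not pass (0.22, -0.38, -0.11, and 0.11), although DESeq2 called NQO1 lower (adjusted p = 0.0491) and the fit of all 24 libraries called NFE2L2 higher. None of the 9 passed the fold-change rule (4.56% of all genes). COX1, a mitochondrial gene, was the most counted gene of each bleomycin library, at 2.76% to 4.10% of counts, and its part in these differences was not tested.

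The other genes of the pathway were examined in 7 lists, which partly share genes. Of 28 further NRF2 targets, 24 had a value. With the groups in the order of the counts above, from ND-646 to palbociclib, 14, 14, 16, 13, 13, and 12 of the 24 rose against day-0 cells, where 17.7% to 27.4% of all genes were called higher. In the same order 1, 2, 2, 3, 3, and 5 fell, where 18.8%, 27.7%, 25.3%, 19.6%, 24.8%, and 27.2% of all genes were called lower. Their median log2 fold-changes were 1.01, 0.53, 0.58, 0.32, 0.41, and 0.38. SLC7A11, the cystine importer that feeds glutathione synthesis, rose from 20.9 ± 4.78 CPM (SD) in day-0 cells to 142 ± 25.9 CPM in ND-646 (log2 fold-change 2.76, edgeR adjusted p = 4.48e-05) and 89.1 ± 8.01 CPM in TVB-3166 TIS cells (2.10, 1.77e-06). FTH1, the ferritin heavy chain, rose from 747 ± 117 CPM to 7066 ± 2650.4 CPM in ND-646 (3.23, edgeR adjusted p = 0.000114), 3322 ± 293 CPM in TVB-3166 (2.16, 1.07e-06), and 4491 ± 1526 CPM in bleomycin TIS cells (2.60, 7.12e-05). SLC6A6, the taurine transporter, rose in all 6 groups, by 0.99 in alisertib to 2.23 in ND-646 TIS cells. AKR1B10, an aldo-keto reductase, also rose in all 6, by 1.54 to 3.40, from a low level of 0.670 CPM in day-0 cells.

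Of the 14 regulators and partners of NRF2, 7, 8, 8, 3, 8, and 5 rose against day-0 cells and 2, 2, 3, 4, 3, and 5 fell, in the same order of groups, where 17.7% to 27.4% of all genes were called higher and 18.8% to 27.7% lower. MAFF, a small MAF protein, rose from 10.5 ± 0.68 CPM to 72.3 ± 19.2 CPM in ND-646 (log2 fold-change 2.78, edgeR adjusted p = 3.26e-05) and 50.5 ± 5.18 CPM in TVB-3166 TIS cells (2.27, 3.17e-07). SQSTM1, the autophagy receptor that sequesters KEAP1, rose in all 6 groups against day-0 cells and in all 6 against day-7 cells, from 352 ± 25.5 CPM to 1486 ± 316 CPM in ND-646 TIS cells (2.07, edgeR adjusted p = 0.000114). NFE2L1, a relative of NRF2, rose in 5 groups, from 189.7 ± 9.18 CPM to 469 ± 48.9 CPM in ND-646 TIS cells (1.30, edgeR adjusted p = 0.00028), and was at 181 ± 6.37 CPM in alisertib TIS cells, which did not pass. SESN2, a stress-induced sestrin, rose by 1.89 in ND-646, 1.63 in TVB-3166, 0.95 in bleomycin, and 0.43 in doxorubicin TIS cells.

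**Figure D4:**
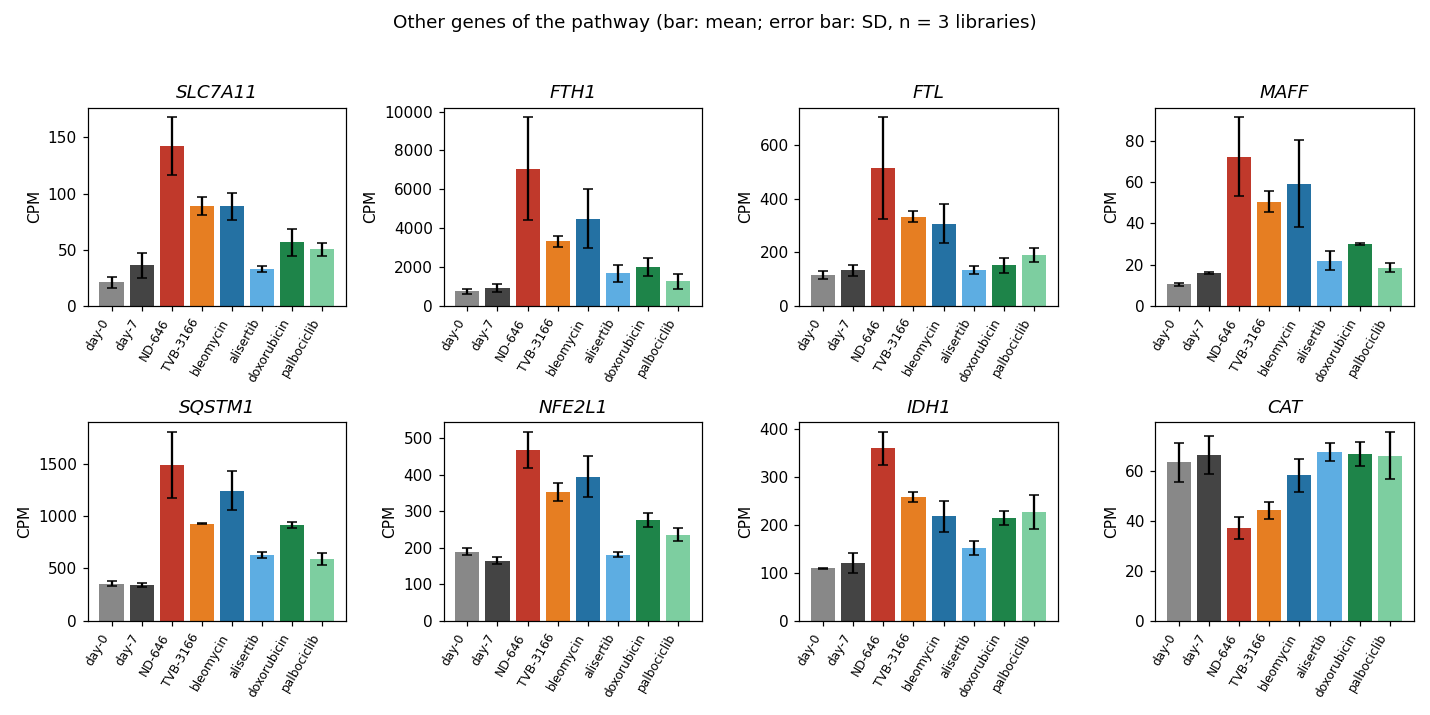
Mean level in CPM (vertical axis, linear from 0) of 8 other genes of the pathway in each group (horizontal axis), with SD as error bars (n = 3 libraries). SLC7A11, FTH1, FTL, MAFF, SQSTM1, NFE2L1, and IDH1 have their highest mean in ND-646 TIS cells, and CAT has its lowest there. These 8 were picked from the genes named in the text, with no rule set for the choice. Among named genes not shown, SLC6A6, SESN2, CHAC1, GPX2, and H6PD are also highest in ND-646. AKR1B10 is highest in doxorubicin, GPX3 and SOD2 in bleomycin, TXNIP in TVB-3166, and PRDX4, TXN2, and SOD1 in day-0 cells.

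The glutathione list holds enzymes that make, use, and degrade glutathione as well as transporters. Of its 24 genes, 20 had a value, and 5, 5, 6, 3, 5, and 6 rose against day-0 cells, where 17.7% to 27.4% of all genes were called higher, while 5, 8, 9, 9, 10, and 10 fell, where 18.8% to 27.7% were called lower, with medians from -0.30 to -0.13 over the 6 groups. Beside SLC7A11, the genes with the widest range were CHAC1, which degrades glutathione and rose in 5 groups (by 2.69 with ND-646 and by 2.45 with TVB-3166), and the glutathione peroxidases GPX2 and GPX3. GPX2 rose in 5 groups, by 1.08 to 1.78, while GPX3 rose in bleomycin (1.26, edgeR adjusted p = 0.000848) and fell in ND-646 (-0.95, 0.0189), TVB-3166 (-1.17, 6.93e-05), and alisertib TIS cells (-1.17, 0.000712). GPX3 also differed by -0.82 between untreated day-7 and day-0 cells, without overlap of libraries, but missed the threshold (edgeR adjusted p = 0.0521). Its mean was 6.74 CPM in day-7 cells, near 6.29 CPM in ND-646, 5.33 CPM in TVB-3166, and 5.40 CPM in alisertib TIS cells. The libraries of each of these TIS groups overlapped the day-7 libraries. Of 13 genes of the thioredoxin and peroxiredoxin system, 12 had a value, and 1, 2, 1, 1, 1, and 1 rose while 2, 7, 6, 4, 7, and 8 fell, against the same shares of all genes. The gene that rose in all 6 groups against day-0 cells was TXNIP, the inhibitor of thioredoxin, from 124 ± 7.13 CPM to 751 ± 40.4 CPM in ND-646 and 792 ± 41.3 CPM in TVB-3166 TIS cells (log2 fold-changes of 2.59 and 2.68, edgeR adjusted p = 1.52e-05 and 6.42e-08). Untreated day-7 cells already had TXNIP at 278 ± 169 CPM (156 to 470 CPM). Against day-7 cells TXNIP was not called higher in bleomycin, alisertib, doxorubicin, or palbociclib TIS cells. Among the genes that fell against day-0 cells were PRDX4, a peroxiredoxin of the endoplasmic reticulum (by 0.38 to 0.93 in 5 groups), the mitochondrial PRDX3 (in 3 groups), and the mitochondrial thioredoxin TXN2 (in 5 groups).

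Of 19 other NADPH producers and pentose phosphate enzymes, 18 had a value, and 6, 6, 8, 7, 5, and 6 rose against day-0 cells while 2, 4, 1, 2, 4, and 3 fell, where 17.7% to 27.4% of all genes were called higher and 18.8% to 27.7% lower. IDH1, which makes cytosolic NADPH from isocitrate, rose in all 6 groups, from 109.5 ± 0.592 CPM to 360.4 ± 34.3 CPM in ND-646 TIS cells (log2 fold-change 1.71, edgeR adjusted p = 4.91e-05) and to 152 ± 14.6 CPM in alisertib TIS cells (0.47, 0.00314). H6PD, which makes NADPH in the endoplasmic reticulum, rose in all 6 by 0.94 to 1.87, and the mitochondrial ALDH1L2 in all 6 by 1.04 to 1.46, although ALDH1L2 passed in 0 of 6 comparisons with day-7 cells. In day-7 cells IDH1 was at 121 ± 20.4 CPM and H6PD at 35.9 ± 7.96 CPM. The alisertib libraries overlapped the day-7 libraries for both, and the doxorubicin libraries did for H6PD. NNT, the mitochondrial transhydrogenase, was low throughout and fell in ND-646, TVB-3166, and palbociclib TIS cells by 0.90 to 1.21. Of the 3 genes of superoxide and peroxide removal, catalase (CAT) fell in ND-646 (-0.78, edgeR adjusted p = 0.00573) and TVB-3166 TIS cells (-0.51, 0.0023) from 63.3 ± 7.87 CPM to 37.1 ± 4.54 and 44.2 ± 3.36 CPM. SOD1 fell in the 5 groups other than ND-646 by 0.44 to 0.57, and SOD2, the mitochondrial superoxide dismutase, rose in bleomycin (0.93, edgeR adjusted p = 0.00131), doxorubicin, and palbociclib TIS cells. Of 9 genes of heme and iron handling, 2, 2, 2, 2, 2, and 3 rose against day-0 cells and 0, 1, 4, 2, 2, and 3 fell, where 17.7% to 27.4% of all genes were called higher and 18.8% to 27.7% lower. Beside FTH1, the ferritin light chain FTL rose in 5 groups, by 2.15 with ND-646 and by 1.54 with TVB-3166, while the biliverdin reductase BLVRB fell by 0.33 to 0.99 in alisertib, doxorubicin, and palbociclib and CPOX, an enzyme of heme synthesis, fell by 1.12 in bleomycin TIS cells. FTH1 and FTL have many near-identical processed copies in the genome, and how the counting treated them is not given in the sources used here.

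Against day-7 cells, 6 to 15 of the 24 further NRF2 targets rose and 1 to 4 fell, and 3 to 9 of the 14 regulators rose and 1 to 3 fell. Of all genes, 9.55% to 25.4% were called higher over the 6 groups, and 17.1%, 26.1%, 23.2%, 9.49%, 21.5%, and 22.9% were called lower. Against the same shares of all genes, the counts were 1 to 6 up and 4 to 10 down of 20 glutathione genes, 0 to 1 up and 2 to 8 down of 12 genes of the thioredoxin system, 1 to 6 up and 2 to 7 down of 18 NADPH producers, 0 to 1 up and 0 to 3 down of 3 genes of superoxide and peroxide removal, and 1 to 2 up and 1 to 5 down of 9 genes of heme and iron handling. Between the fatty acid synthesis inhibitors and the other 4 inducers, 16 of the 24 further targets were higher and 1 was lower, and 7 of the 14 regulators were higher and 2 lower, where 26.1% of all genes were called higher and 24% lower. SLC7A11 differed by 1.08 (edgeR adjusted p = 6.9e-08), FTH1 by 1.23 (1.37e-05), MAFF by 1.06 (3.53e-06), and CAT by -0.66 (1.8e-06) in that contrast. Between TVB-3166 and ND-646, 0 of 88 genes of these lists passed by edgeR, where 0.717% of all genes did.

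Across the 24 libraries, the log2 CPM of the 9 genes moved together to varying degrees, given here as a description because libraries of a group share their treatment. Among 36 pairs the median Pearson correlation was 0.68, and 7 pairs were at 0.8 or more. The highest were SRXN1 with PGD (0.94), GCLC with GCLM (0.87), NQO1 with GCLC (0.87), NQO1 with ME1 (0.84), and NFE2L2 with HMOX1 (0.83), and the lowest was HMOX1 with ME1 (0.31). Among 14077 genes, those closest to each member by the same measure were PTGES (0.93) and ELF3-AS1 (0.92) for NFE2L2, SPINK8 and IDH1 (both 0.93) for NQO1, KRT17 (0.90) and MRGPRE (0.89) for HMOX1, GFPT1 (0.96) and CLDN12 (0.94) for GCLC, and MAFG (0.95) and AXIN2 (0.95) for GCLM. For TXNRD1 they were BTN3A3 and TRIM16L (both 0.95), for SRXN1 RRAGD and VAT1 (both 0.96), for PGD AKNA and WARS1 (both 0.94), and for ME1 TMEM135 (0.92) and TXNIP (0.91). MAFG and TRIM16L are in the list of further NRF2 targets.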

How the data were processed

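RNA-seq counts of 24 SKBR3 libraries were analysed. The authors used HISAT2 on GRCh37, then StringTie and DESeq2 (the submitters' processing notes also name bcl2fastq), and deposited raw whole-number counts for each gene. The kit was for total RNA by the methods but for mRNA by the labels, both stranded, and the counting settings are not given in the sources used here. The lowest deposited count is 1, so genes without reads in some library cannot be described, and 0 columns belonged to other series.

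Groups came from the sample titles. The test was that of edgeR 4.0.16 under R 4.3.3 (quasi-likelihood, 2-sided, filterByExpr, TMM, only the groups compared), with Benjamini-Hochberg adjustment over all genes. With 3 libraries against 3, an exact permutation test cannot go below p = 0.1. Levels are TMM-normalized CPM over all 24 libraries, with a prior count of 2 on the log2 scale. Counting error is small at this depth, and no pair of replicates agreed within sampling noise. The scripts were tested on simulated counts.

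The 9 genes and the lists were chosen with earlier results of these data known. Beside the 9, the 4 genes of each list with the widest range of mean log2 CPM and the 2 genes most correlated with each member are named. Gene models are GENCODE v44 lifted to GRCh37. Alternatives were RLE size factors, no filter, DESeq2 1.42.0, all 24 libraries in a single fit, the fold-change rule, a block for replicate number, and leave-one-out fits. The labels give no meaning to replicate numbers, but same-numbered libraries deviated together in all 3 pairs (correlations over 0.1) between bleomycin and day 7 (0.104 to 0.141), alisertib and day 7 (0.101 to 0.217), and TVB-3166 and ND-646 (0.211 to 0.379). These comparisons are termed paired, but their main tests and the counts above used no block. The cut of 0.1 was a choice, and doxorubicin and day 7 missed it with correlations of 0.0957 to 0.210. Over all pairs of the 6 drug-treated groups, 36 of 45 such correlations were over 0.1, with a range of -0.154 to 0.402. Same-numbered libraries thus often deviated together in comparisons not termed paired as well, the contrasts among inducers included.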

Additional observations from a re-analysis of the deposited data

Results flagged for a closer look

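The effect of inhibiting fatty acid synthesis differed from that of the other 4 inducers by a test of the difference itself for 7 of the 9 genes. The log2 differences were 0.70 for GCLC, 0.60 for NQO1, 0.52 for SRXN1, 0.50 for ME1, 0.47 for PGD, 0.39 for GCLM, and -0.21 for TXNRD1, so TXNRD1 alone went the other way. These are differences between means over groups, and the mean of TVB-3166 alone was below that of bleomycin for SRXN1, PGD, and GCLM. For TXNRD1 the ND-646 mean of 2009 CPM lay within the 1521 to 2087 CPM of the other 4 groups, and only the TVB-3166 mean of 1303 CPM lay below them. By the same kind of test, bleomycin differed from the other 5 inducers by 0.89 for HMOX1, 0.48 for SRXN1, 0.36 for GCLM, 0.31 for PGD, and -0.64 for ME1. Doxorubicin had a higher mean than bleomycin for HMOX1, and ND-646 for SRXN1, GCLM, and PGD. The SRXN1 difference was not called without bleomycin replicate 2, and the GCLM and PGD differences were lost in 10 and 11 of 18 fits that left out a library, bleomycin replicate 2 among them.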

How the results depend on the processing

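The number of the 9 genes called stayed within 1.5 times its value under RLE size factors in all 16 comparisons, and under DESeq2, all 24 libraries in a single fit, and the replicate block in 14 of 16. The exceptions were TVB-3166 against ND-646 (0 genes, but 3 with DESeq2, 5 with all 24 libraries, and 1 with the block) and day 7 against day 0 (1 gene, but 2 with each of these and 0 without the filter). Under a fold-change of at least 2 the counts were 4, 3, 2, 3, and 3 for TVB-3166, bleomycin, alisertib, doxorubicin, and palbociclib against day 0, then 5, 2, 2, 1, 2, and 0 for all 6 groups against day 7, and 0 for day 7 against day 0 and for both contrasts among inducers. Leaving out a library gave 0 to 1 genes for day 7 against day 0, 3 to 6 for alisertib against day 0 (3 without day-0 replicate 2), 0 to 5 for TVB-3166 against ND-646, 2 to 6 for bleomycin against the other 5 inducers (3 without any of 7 other single libraries), and 7 to 9 for ND-646 against day 0. Differences that changed sign were all uncalled: HMOX1 at day 7 against day 0 (0.043 under the block) and PGD in alisertib against day 7 (-0.0015 with all 24 libraries), and, when a library was left out, at day 7 against day 0 HMOX1 (-0.30 to 0.44), GCLC (-0.068 to 0.10), and PGD (-0.082 to 0.018), in alisertib against day 0 PGD (-0.086 to 0.015), against day 7 ME1 in bleomycin (-0.078 to 0.23), SRXN1 (-0.016 to 0.11) and PGD (-0.037 to 0.043) in alisertib, and PGD in palbociclib (-0.10 to 0.051), and among inducers HMOX1 between TVB-3166 and ND-646 (-0.33 to 0.39), HMOX1 between the fatty acid synthesis inhibitors and the other 4 (-0.27 to 0.097), and GCLC between bleomycin and the other 5 (-0.26 to 0.059). The cause was not tested. Blocking changed no call of the paired comparisons beyond those given. In unpaired ones it added GCLC in alisertib against day 0, ME1 in doxorubicin and HMOX1 in palbociclib against day 7, TXNRD1 at day 7 against day 0, and NFE2L2 and NQO1 in bleomycin against the other 5. At this depth the spread between 3 libraries, not counting error, limits these calls.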
